A study of Mus musculus with 4 samples.

Results

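Arg1 phagocytes low in C1q were 64 cells out of 14555 kept barcodes (0.440%) and out of 1361 phagocytes (4.70%) in 4 mouse mammary tumours. Barcodes entered with no fewer than 500 UMIs (unique molecular identifiers, which count captured transcripts), 250 or more genes and a mitochondrial share of UMIs no higher than 20%. A kept barcode counted as a phagocyte when Lyz2, Cd68 and Csf1r summed to at least 3 UMIs and at least 0.1% of its UMIs, with at most 1 UMI of Cd3d, Cd3e and Cd3g. A phagocyte became a member with at least 2 Arg1 UMIs, fewer than 3 UMIs of C1qa, C1qb and C1qc together, fewer than 3 of the monocyte genes Ly6c2, Plac8, Vcan and Hp, and fewer than 2 of Cxcl9 and Cxcl10. The class is therefore a range of counts and not a cluster, and none of these genes is reported as a finding.

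The tumours grew from H605, a HER2-positive mouse mammary tumour line, that was injected in a mammary pad; the hosts were FVB/NJ mice aged 6 to 8 weeks, and tumours were taken on day 14. A pair of hosts was wild type (WT) and a pair carried IL1α-/-, so the deletion lies in the host and the same injected line was used in all groups. Each tumour gave 1 droplet library of 3' ends from a live-cell suspension that was not sorted by cell type, and both groups hold 2 samples. The labels say that the tumours came in pairs on separate days, without tying a replicate number to a day. The purpose read from the design is the effect of host interleukin 1α on the tumour's cells. The libraries held 23462739 and 28999819 mouse UMIs for WT replicates 1 and 2, and 6704859 and 15297495 for IL1α-/- replicates 1 and 2. Values per library follow this order throughout. The edgeR p-values rest on variance estimates shared across genes, and with so few libraries they do not measure how much tumours vary.

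Arginase 1, the enzyme encoded by Arg1, splits arginine into ornithine and urea, and macrophages that carry it are known in tumours and wounds for drawing down arginine. C1q is the recognition part of the classical complement pathway, and its genes mark mature tissue macrophages. In cells short of oxygen, hypoxia-inducible factors bind DNA at short elements, often with the letters ACGTG. They switch on glucose uptake, glycolysis, lactate export and genes such as Vegfa, Hilpda and Ero1l.

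Members numbered 6 and 35 in the WT libraries and 4 and 19 in the IL1α-/- libraries, so 54 of the 64 came from the libraries numbered 2. The gate took 392 phagocytes with at least 2 Arg1 UMIs, of which 126 were low in C1q, 75 of those also low in the monocyte genes, and 64 of those low in Cxcl9 and Cxcl10. Arg1, the gene used to choose them, had a median of 9 UMIs per member (range 2 to 113). Just inside the limits stood 9 members with 2 Arg1 UMIs and 2 with 2 C1q UMIs, while 56 had no C1q UMI. Just outside were 7 cells with 1 Arg1 UMI, and 8 Arg1 phagocytes with 3 to 5 C1q UMIs against 168 with 6 or more. At least 2 Arg1 UMIs were found in 0.0775%, 0.526%, 0% and 0.0587% of T cells (cells with at least 2 UMIs of the 3 Cd3 genes), whose Arg1 should be background from free RNA.

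Members had a median of 3818 UMIs and 1516.5 genes, with 1.80% mitochondrial UMIs. Scrublet placed none of the 64 among the doublets of its library, and none of their barcodes was a kept barcode of another library. Markers of the cell types named next were sparse in the members' summed counts. Levels of dendritic cell, B cell, fibroblast and endothelial markers are not given, and the rule does not exclude dendritic cells. T and NK cell markers (12 genes) summed to 0, 57.1, 0 and 76.1 CPM (a gene's UMIs per 1000000 UMIs of the summed cells), neutrophil markers to 124, 57.1, 90.0 and 54.3, and tumour epithelial markers to 0, 9.52, 0 and 0, while mast cell and erythroid markers were at 0. Il1a, the gene deleted in the host, had 1, 8, 0 and 0 UMIs in the members, and 67, 112, 1 and 0 in all kept barcodes.

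As a share of phagocytes, members made up 1.55% (exact 95% binomial interval 0.573 to 3.35), 5.68% (3.99 to 7.81), 3.39% (0.931 to 8.45) and 7.88% (4.81 to 12). WT hosts averaged 3.62% ± 2.92 (SD over 2 tumours), and IL1α-/- hosts 5.64% ± 3.18 (SD over 2 tumours). The 2.02 percentage points between them were less than the spread within a group (two-sided exact permutation test, p = 0.667), and 0.33 is the smallest p that 4 samples allow. Both libraries numbered 2 lay above both numbered 1, by 4.31 points on average, and the IL1α-/- library was above the WT library of its number by 1.84 and 2.20 points. Of all kept barcodes, members were 0.150%, 0.874%, 0.124% and 0.570%, which put IL1α-/- hosts at -0.165 points relative to WT (p = 0.667 in the exact permutation test). The direction turned without WT replicate 1 (-0.0450 points of phagocytes) or IL1α-/- replicate 2 (-0.228), and for kept barcodes without WT replicate 2 (0.197) or IL1α-/- replicate 1 (0.0579). With every cell thinned to 1000 UMIs the difference in phagocytes was 0.357 points.

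**Figure D1:**
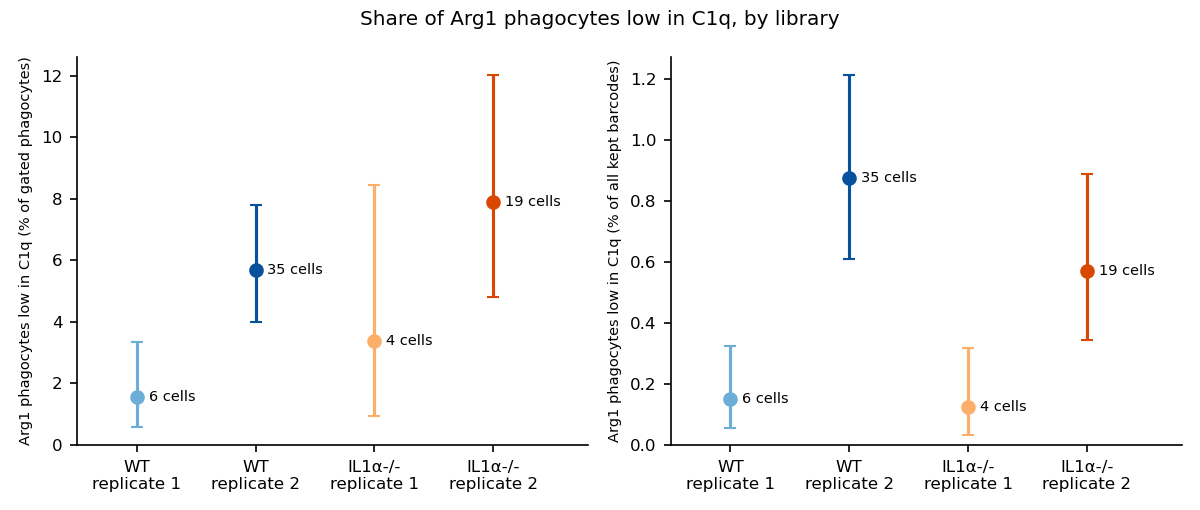
Percent of gated phagocytes (left) and of all kept barcodes (right) that were Arg1 phagocytes low in C1q, per library; bars are exact 95% binomial intervals and cover counting error only. The libraries numbered 2 stand above those numbered 1 in both panels, and the genotypes overlap.

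The other 2 genes given as marks of the class, Hilpda (a lipid droplet protein induced in low oxygen) and Ero1l (an oxidase that forms disulfide bonds in the endoplasmic reticulum), were not carried by every member. Both were detected in 18 members, only Hilpda in 8, only Ero1l in 13 and neither in 25. The 25 cells with neither were shallower, with a median of 2924 UMIs against 7524 in those with both. UMIs of these 2 genes were also found in T cells, and whether they came from free RNA was not tested. Hilpda was found in 40.6% of members (median 3818 UMIs) and 28.4% of T cells (median 2735). In IL1α-/- replicate 1 it was found in 25% of members and 26.8% of T cells. Ero1l was found in 48.4% of members and 21.3% of T cells. After thinning to 1000 UMIs the shares were 20.1% and 14.6% for Hilpda, and 24.4% and 8.40% for Ero1l. Hilpda and Ero1l thus mark part of the class, and the class is called here by its Arg1 and C1q rule.

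The sequences just before the start sites of hypoxia-linked genes are shown because such genes were higher in the members, as described next. Each is the 250 bases before the first start that RefSeq lists on GRCm38.p6, written 5′ to 3′ on the strand of the gene. Capitals mark ACGTG, or CACGT where it reads ACGTG on the other strand; in Bnip3 the 2 overlap as CACGTG, which is also the E-box motif. Ero1l (RefSeq symbol Ero1a) is at chr14:45318573-45318822 on the minus strand, Bnip3 at chr7:138909507-138909756 on the minus strand, Slc16a3 at chr11:120948817-120949066 on the plus strand and Hilpda at chr6:29272238-29272487 on the plus strand.
Ero1l: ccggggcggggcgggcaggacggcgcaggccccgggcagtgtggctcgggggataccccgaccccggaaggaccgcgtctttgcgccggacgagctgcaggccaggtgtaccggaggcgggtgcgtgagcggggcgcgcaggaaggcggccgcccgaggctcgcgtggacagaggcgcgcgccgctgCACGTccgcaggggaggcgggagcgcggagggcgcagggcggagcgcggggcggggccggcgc
Bnip3: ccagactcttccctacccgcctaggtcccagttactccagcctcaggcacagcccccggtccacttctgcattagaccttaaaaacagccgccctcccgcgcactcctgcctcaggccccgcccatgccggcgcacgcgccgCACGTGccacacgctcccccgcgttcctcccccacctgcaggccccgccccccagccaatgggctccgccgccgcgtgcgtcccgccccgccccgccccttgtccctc
Slc16a3: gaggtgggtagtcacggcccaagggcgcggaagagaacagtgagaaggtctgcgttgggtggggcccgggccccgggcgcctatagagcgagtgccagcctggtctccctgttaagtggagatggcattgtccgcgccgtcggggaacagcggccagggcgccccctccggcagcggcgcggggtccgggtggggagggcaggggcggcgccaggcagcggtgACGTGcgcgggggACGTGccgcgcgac
Hilpda: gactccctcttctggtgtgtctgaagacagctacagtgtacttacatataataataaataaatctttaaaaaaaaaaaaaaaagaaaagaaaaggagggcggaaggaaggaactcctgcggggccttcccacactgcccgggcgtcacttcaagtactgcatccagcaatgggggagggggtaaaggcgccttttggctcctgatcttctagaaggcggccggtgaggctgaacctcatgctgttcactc
Among the hypoxia and glycolysis genes, 43 of 46 matched an entry, and 25 of the 43 (58.1%) held ACGTG on either strand within 250 bases of at least 1 start, against 18.5% of 27025 genes in the table and 28.8% of the 2330 tested genes that matched. Of the 20 matched genes called higher against phagocytes without Arg1 or against C1q phagocytes, 13 (65%) held it, near the 58.1% of the whole list. The list was chosen for known hypoxia and glycolysis genes, so its excess over other genes comes with that choice. It is no result about the members. Hilpda has 2 listed starts, of which the other holds the motif. A match describes letters and not binding, and other forms of the element were not searched.

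Members were compared with 4 other classes of phagocytes in the same libraries by summing counts per library and class. The classes were cells of the same gate with 0 Arg1 UMIs (68, 42, 20 and 23 cells), C1q phagocytes with fewer than 2 Arg1 UMIs (120, 102, 6 and 42), phagocytes with both Arg1 and C1q (51, 98, 3 and 24) and monocyte-gated phagocytes (99, 103, 35 and 71). Tests used edgeR with the sample as a block, Benjamini-Hochberg adjustment over all genes tested and a threshold of 0.05. The 16 genes of the rule were left out. Only the libraries numbered 2 had at least 10 members, so these tests rest on 1 WT and 1 IL1α-/- library with 1 residual degree of freedom; fold changes below are from that fit, and fits over all 4 libraries are named where they differ. The 4 comparisons share the members' counts, and the classes were drawn from the same cells, so the calls describe how the classes differ and are not independent of one another.

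Against cells of the same gate without Arg1, 58 (3.48%) of 1667 genes tested were called, 45 higher (2.7%) and 13 lower (0.78%). Against C1q phagocytes 208 (7.31%) of 2846 were called (97 higher, 3.41%, and 111 lower, 3.9%). Against phagocytes with both Arg1 and C1q 113 (3.78%) of 2993 were called (30 higher, 1.0%, and 83 lower, 2.77%). Against monocyte-gated phagocytes 394 (11.6%) of 3408 were called (190 higher, 5.58%, and 204 lower, 5.99%). The median log2 fold change over all genes tested lay between -0.01 and 0.00 in each. Over all 4 libraries the percent of genes called, with those higher and those lower, was 5.0% (3.51% and 1.49%) against cells without Arg1, 4.58% (1.96% and 2.62%) against C1q phagocytes, 3.51% (1.09% and 2.42%) against phagocytes with both and 15.3% (6.74% and 8.58%) against monocyte-gated phagocytes. The calls against cells without Arg1 moved with many settings: 67 genes were called over all 4 libraries, of which 38 were shared with the 58, but 2 when both classes were held to at least 1000 UMIs, 6 with doublets removed and 0 without the filter on low counts (330 at an unadjusted p under 0.05). Over all 4 libraries, leaving out WT replicate 2 or IL1α-/- replicate 2 gave 17 or 23 calls against cells without Arg1, 30 or 32 (of 84) against C1q phagocytes, 9 or 20 (of 74) against phagocytes with both Arg1 and C1q and 148 or 235 (of 357) against monocyte-gated phagocytes. Leaving out IL1α-/- replicate 1 gave 15 against phagocytes with both. Cells without Arg1 were shallower than members, with median UMIs of 2776, 1651.5, 1579 and 1843 against 6084, 3749, 3046.5 and 3867, and the part of depth in these calls was not tested.

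Glycolysis genes were the most uniform group in the members. Of the 18 listed, 9 of 12 tested were higher than in cells without Arg1 (median log2 fold change 1.39, beside -0.01 over all genes), 12 of 14 higher than in C1q phagocytes (1.99) and 14 of 14 higher than in monocyte-gated phagocytes (1.89), with none lower. Against phagocytes with both Arg1 and C1q, 1 of 16 was called, Eno1, with a median of 0.51. In all 4 libraries, 11, 8, 5 and 11 of the 18 genes stood higher in members than in cells without Arg1, C1q phagocytes, phagocytes with both and monocyte-gated phagocytes, respectively. The matching share over all genes was not computed, so these counts only describe the list. The summed level of the list in members was 7021, 10979, 8551 and 14498 CPM, against 3475, 4884, 3009 and 4829 CPM in cells without Arg1, so members were higher in every library. Against cells without Arg1 the calls were fragile while the size was not: none of the 12 genes passed with doublets removed or at 1000 UMIs, with medians of 1.44 and 1.40, and over all 4 libraries 8 of 11 passed (1.26), or 0 without WT replicate 2 and 1 without IL1α-/- replicate 2.

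Gapdh, which encodes glyceraldehyde-3-phosphate dehydrogenase, stood at 1588, 3214, 2160.2 and 3543 CPM in the members and at 899.7, 1057, 369 and 1055 CPM in cells of the gate without Arg1. The members were higher in all 4 libraries, and the ranges did not overlap. On the log2 scale the members exceeded them by 1.72 ± 0.24 (SE; adjusted p = 0.000681, edgeR), a call kept under 4 of 8 alternative settings, and 2.27 ± 0.38 against C1q phagocytes (adjusted p = 5.68e-05), where it passed under 8 of 8. Eno1, the enolase of glycolysis, was at 447, 799.9, 720.1 and 999.8 CPM in members, against 163, 419.6, 399 and 354 in phagocytes with both Arg1 and C1q. It was higher in each library. Its log2 fold change of 1.11 ± 0.28 was the one glycolysis call of that comparison (adjusted p = 0.00368, edgeR, and 0.00632 over 4 libraries). Ldha, which turns pyruvate into lactate, had 868, 1033, 1530.2 and 1185 CPM, with log2 fold changes of 1.15 ± 0.30, 1.69 ± 0.36 and 1.81 ± 0.27 against cells without Arg1, C1q phagocytes and monocyte-gated phagocytes. Slc16a3, the lactate exporter MCT4, was low in count, with 4, 30, 0 and 26 UMIs, and its log2 fold changes in the same order were 2.35 ± 0.57, 2.48 ± 0.42 and 1.5 ± 0.36, all passing.

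Hypoxia-response genes were higher as well. Of the 28 listed, 5 of 13 tested were higher than in cells without Arg1 (median log2 fold change 1.57), 8 of 15 higher than in C1q phagocytes (1.63) and 12 of 16 higher than in monocyte-gated phagocytes (1.56), with none lower. Against phagocytes with both Arg1 and C1q the call went to 2 of 17, Ero1l and Hilpda, with a median of 0.53. Of these, Hilpda stood higher in 3 of the 4 libraries and Ero1l in 1, IL1α-/- replicate 2, with 47.0, 133, 1198 and 296 CPM in the class with both. The plot of log2 fold changes by gene shows the shift of that last comparison toward 0. Plin2, which coats lipid droplets, and Hif1a, which encodes the oxygen-sensitive factor itself, passed in none of the 4 comparisons; over all 4 libraries Hif1a passed against cells without Arg1 (adjusted p = 0.0214) and monocyte-gated phagocytes (adjusted p = 0.0424, edgeR). The hypoxia calls changed with the libraries numbered 2. Over 4 libraries 3 of 8, 4 of 10 and 8 of 11 tested were higher than in cells without Arg1, C1q phagocytes and monocyte-gated phagocytes, and without IL1α-/- replicate 2 the counts were 0 of 6, 0 of 10 and 5 of 11. Without WT replicate 2 they were 1 of 7, 0 of 6 and 0 of 5.

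Hilpda stood at 74.4, 338, 180.0 and 478 CPM in the members (3, 71, 2 and 44 UMIs), with the libraries numbered 2 highest, and at 30.0, 40.6, 64.6 and 72.2 CPM in monocyte-gated phagocytes. The log2 fold change was 3.07 ± 0.34 against monocyte-gated phagocytes (adjusted p = 3.55e-17, edgeR), and 1.40 ± 0.30 against phagocytes with both Arg1 and C1q (adjusted p = 0.000203, but 0.0520 over 4 libraries). Ero1l was uneven, at 24.8, 129, 90.0 and 2271 CPM: IL1α-/- replicate 2 stood 17.7 times above WT replicate 2, and 65 of its 209 UMIs lay in 1 cell. Its log2 fold change was 3.96 ± 0.57 against C1q phagocytes (adjusted p = 4.42e-06, edgeR) and 1.54 ± 0.32 against phagocytes with both, the latter turning to -0.71 over 4 libraries without IL1α-/- replicate 2. In WT replicate 1 its 24.8 CPM in members was close to the 21.2 CPM of cells without Arg1.

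Bnip3, which targets mitochondria for removal, had 149, 171, 90.0 and 565 CPM in members and 13.6, 11.1, 32.3 and 20.1 in monocyte-gated phagocytes. Members were higher in each library, with a log2 fold change of 4.54 ± 0.42 (adjusted p = 8.27e-24, edgeR). Vegfa, the vessel growth factor, had 74.4, 176, 360.0 and 413 CPM against 32.7, 20.3, 48.5 and 80.2, a log2 fold change of 2.87 ± 0.37 (adjusted p = 1.29e-12). It was also higher than in C1q phagocytes (1.87 ± 0.41, adjusted p = 0.00179) and did not pass against phagocytes with both Arg1 and C1q (0.74 ± 0.31, adjusted p = 0.215). Slc2a1, the glucose transporter GLUT1, passed against C1q phagocytes (2.81 ± 0.45) and monocyte-gated phagocytes (1.51 ± 0.39), and missed the threshold against cells without Arg1 (adjusted p = 0.0546, edgeR).

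**Figure D2:**
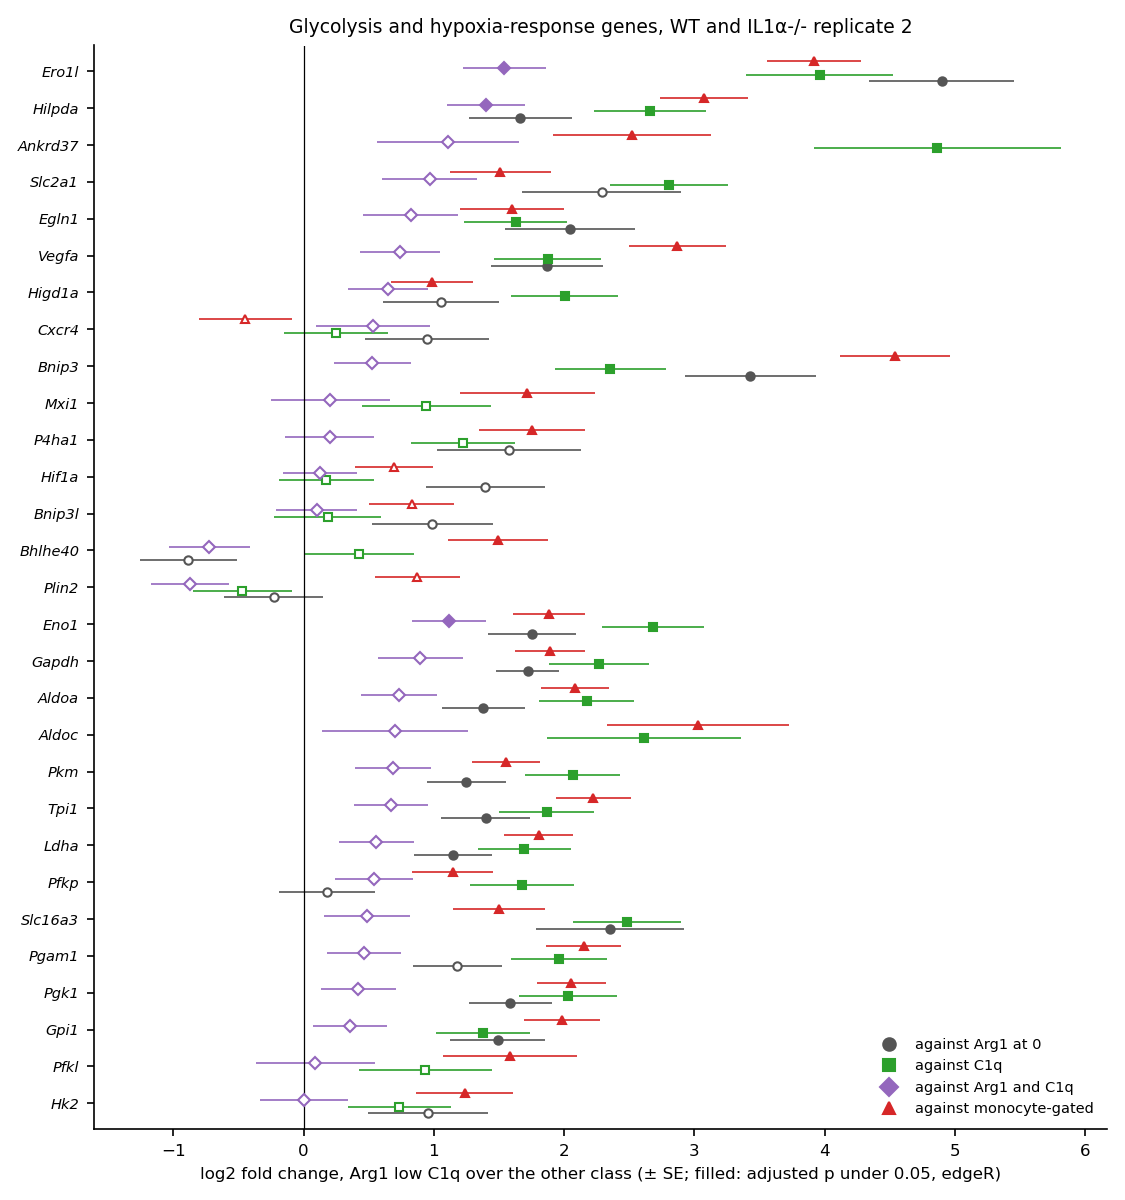
Log2 fold change of Arg1 phagocytes low in C1q over each of 4 other phagocyte classes for hypoxia-response and glycolysis genes (points with SE, WT and IL1α-/- replicate 2; filled symbols passed an adjusted p of 0.05 in edgeR, and a missing symbol means the gene was not tested). The purple symbols, against phagocytes with both Arg1 and C1q, lie nearest to 0, with 3 of them filled.

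Counted cell by cell, the 46 hypoxia and glycolysis genes took a median of 0.799%, 1.11%, 1.51% and 2.04% of a member's UMIs (range over all members 0.318% to 4.11%). The medians were 0.444%, 0.573%, 0.408% and 0.564% in cells without Arg1, 0.299%, 0.399%, 0.386% and 0.565% in C1q phagocytes, and 0.402%, 0.444%, 0.471% and 0.455% in monocyte-gated phagocytes. Phagocytes with both Arg1 and C1q had 0.421%, 0.914%, 1.37% and 1.08%, next below the members except in WT replicate 1. Members had the highest median of the 5 classes in each of the 4 libraries, and their cells spread over a wide range in the libraries numbered 2.

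**Figure D3:**
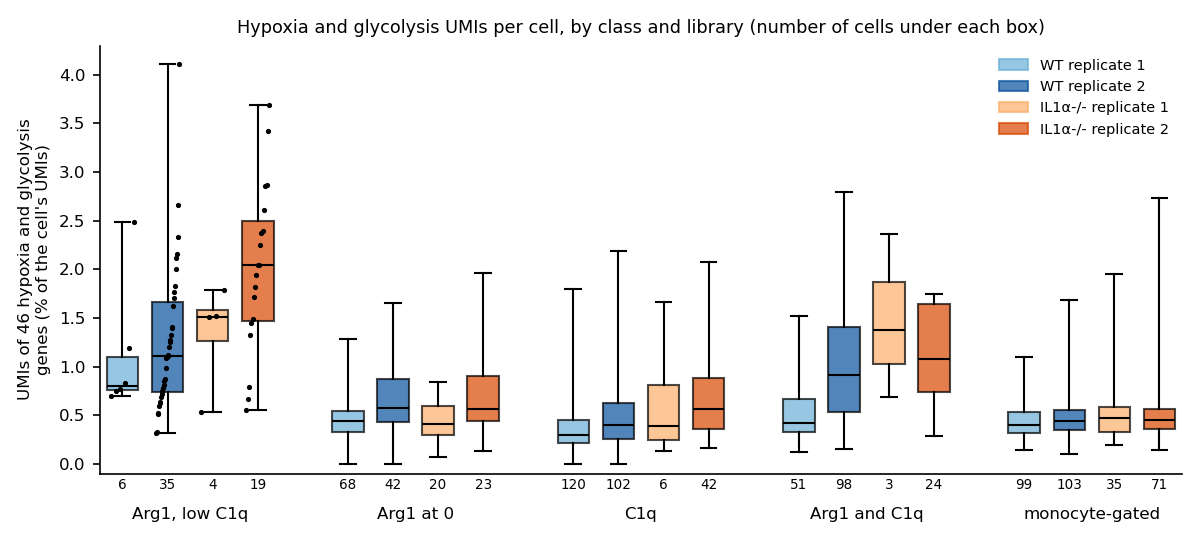
Percent of each cell's UMIs in the 46 hypoxia and glycolysis genes, by class and library (box, quartiles; whiskers, lowest and highest cell; dots, single members). The members' medians, from 0.799% to 2.04%, are the highest in each library, while boxes of members and other classes overlap in part (in WT replicate 2, for example).

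Genes of alternative activation, the macrophage program that interleukin 4 induces, were higher in members than in monocyte-gated phagocytes. Of 18 listed, 8 of 13 tested were higher than in monocyte-gated phagocytes (median log2 fold change 2.25) and 4 of 11 higher than in cells without Arg1 (0.71), with none lower. Against C1q phagocytes 2 were higher and 2 lower of 11 (-0.06), and against phagocytes with both Arg1 and C1q none of 12 was called (0.22). Single cells carried much of this signal. Chil3, a chitinase-like secreted protein, had 2258, 1962, 7111 and 25268 CPM, but it was found in 27 of the 64 members and 1222 of the 2325 UMIs of IL1α-/- replicate 2 came from 1 cell. Its log2 fold change against cells without Arg1, which held 24.2, 81.9, 199 and 114 CPM, was 6.69 ± 0.54 (adjusted p = 2.6e-06, edgeR). Retnla, another secreted protein of this program, had 5433, 8856, 1620.2 and 11118 CPM and did not pass against cells without Arg1 (-0.17 ± 0.21, adjusted p = 0.822). It was lower than in C1q phagocytes (-1.57 ± 0.50, adjusted p = 0.0432) and higher than in monocyte-gated ones (5.45 ± 0.36, adjusted p = 1.56e-46). Retnla and Chil3 were found in 8.54% and 2.45% of T cells, against 62.5% and 42.2% of members.

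Tgm2, a transglutaminase that crosslinks proteins, was higher in members than in 3 of the classes. It stood at 174, 1052, 630.1 and 424 CPM, with log2 fold changes of 2.66 ± 0.40, 3.21 ± 0.42 and 2.25 ± 0.31 against cells without Arg1, C1q phagocytes and monocyte-gated phagocytes (adjusted p = 0.00126, 1.06e-06 and 2.08e-11, edgeR). The mannose receptor gene Mrc1 and the chemokine gene Ccl24 passed against cells without Arg1 (1.46 ± 0.33 and 0.97 ± 0.23) and against monocyte-gated phagocytes (2.26 ± 0.29 and 3.0 ± 0.28). Around arginine itself, Slc7a2, an arginine importer, stood at 521, 181, 720.1 and 1206 CPM in members and at 0, 90.1, 0 and 143 CPM in cells without Arg1. It was higher in each library (2.28 ± 0.50, adjusted p = 0.0221, edgeR), but 1 cell held all 21 UMIs of WT replicate 1, and another 58 of the 111 in IL1α-/- replicate 2. In phagocytes with both Arg1 and C1q, at 176, 485, 1598 and 1295 CPM, it did not pass (adjusted p = 0.150). Odc1, the first enzyme from ornithine to polyamines, had 5, 13, 1 and 3 UMIs and passed in neither of the 2 comparisons that tested it, both against C1q classes, and Nos2, the other main user of arginine in macrophages, had 0, 0, 0 and 1 UMIs, where a count of 0 allows up to 3. Sat1, which breaks polyamines down, was lower than in monocyte-gated phagocytes (-0.96 ± 0.27, adjusted p = 0.00677).

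**Figure D4:**
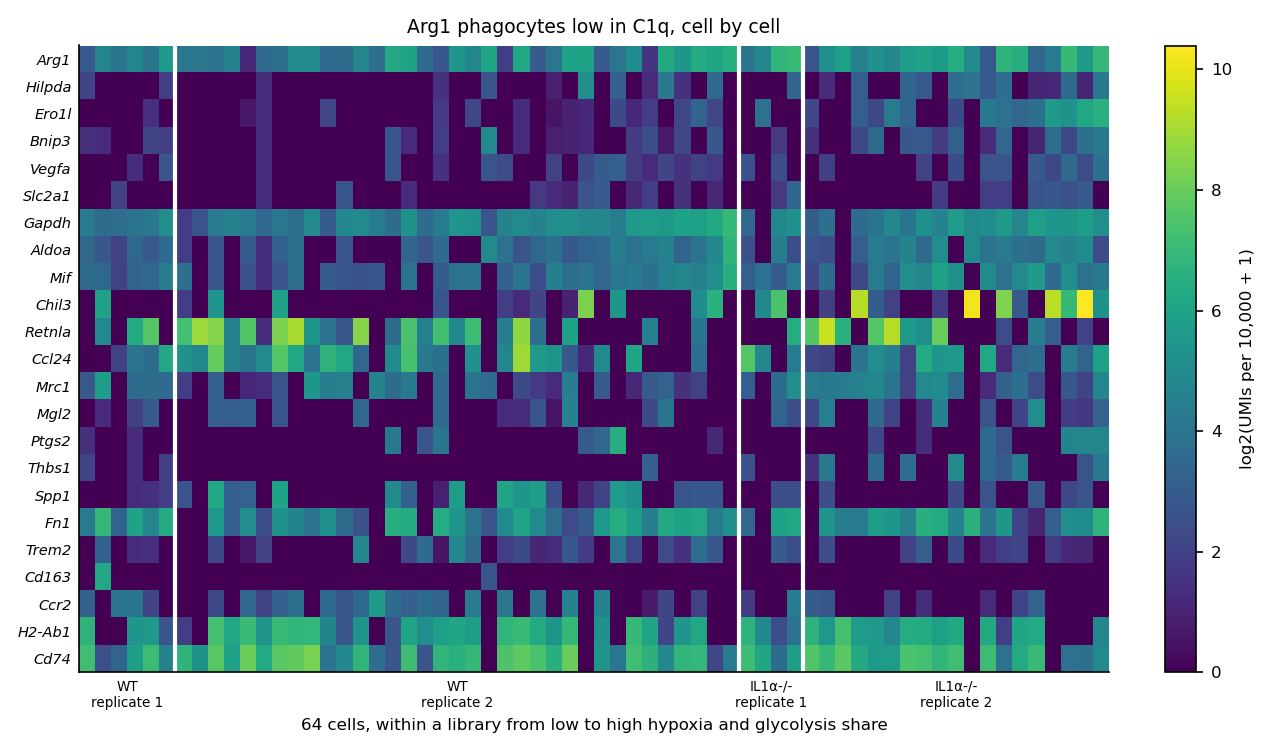
Level of 23 genes in each of the 64 members (columns, grouped by library and ordered within it by the share of hypoxia and glycolysis UMIs; colour, log2 of the UMI count scaled to a common depth per cell, plus 1). Gapdh is seen in nearly every column, while Chil3, Retnla and Ptgs2 are high in some cells and at 0 in others.

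The comparison with phagocytes that carry both Arg1 and C1q was added after the cell numbers were seen. Genes linked to interleukin 1 and NF-κB signalling were higher in members: 6 of 12 tested passed, none was lower, and the median log2 fold change was 1.02. The 6 were the chemokine gene Cxcl2, the cytokine gene Il1b, the inflammasome sensor gene Nlrp3, and Nfkbiz, Nfkbia and Rel of the NF-κB family and its inhibitors. Against C1q phagocytes 3 of 12 were higher (0.63), against monocyte-gated phagocytes 1 (0.02) and against cells without Arg1 none (-0.39). Of the 21 listed genes, 4 stood higher than in phagocytes with both Arg1 and C1q in all 4 libraries. The share over all genes was not computed, so this count is no sign of an excess.

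Cxcl2, a chemokine that draws neutrophils, had 1017, 1166, 4320.4 and 3641 CPM in members and 331, 245, 9055 and 694 in phagocytes with both Arg1 and C1q. Members were higher in 3 of 4 libraries, and lower in IL1α-/- replicate 1, which holds 4 and 3 cells. The log2 fold change was 2.25 ± 0.31 (adjusted p = 2.87e-10, edgeR). Il1b, which encodes interleukin 1β, had 669.9, 862, 630.1 and 619 CPM against 799, 255, 266 and 112 and a log2 fold change of 1.95 ± 0.29 (adjusted p = 5.36e-09); WT replicate 1 went the other way. In monocyte-gated phagocytes Il1b was at 1659, 892, 1244 and 766 CPM, and members did not differ from them beyond the error (0.01 ± 0.26, adjusted p = 0.989). Ptgs2, the cyclooxygenase of prostaglandin synthesis, was at 49.6, 329, 0 and 696 CPM against 17.3, 25.7, 0 and 38.8, a log2 fold change of 3.78 ± 0.35 (adjusted p = 2.88e-23). It was found in 16 of the 64 members (25%) and in 0.419% of T cells, and IL1α-/- replicate 1 had none in either class. Over all 4 libraries 6 of 11 genes of the list passed, and 0 without IL1α-/- replicate 2 (11 tested) or WT replicate 2 (5 tested), with medians of 0.96 and 0.94. Every call in this comparison was lost when the sample was not used as a block, where 0 genes passed in edgeR and 180 had an unadjusted p under 0.05.

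Genes of lipid-associated macrophages, the state known for lipid uptake and lysosomal digestion, were lower in members than in phagocytes with both Arg1 and C1q. Of 14 tested, 9 were lower and none higher (median log2 fold change -1.71). Against C1q phagocytes 5 of 13 were lower and 1 higher (-1.12), whereas against monocyte-gated phagocytes 7 of 14 were higher and none lower (1.09). Against cells without Arg1, 2 of 14 were higher, Trem2 and Apoe, and 1 lower, Cd63 (-0.42). Over all 4 libraries 8 of 14 were lower than in phagocytes with both Arg1 and C1q (-1.23), and 2 of 13 without IL1α-/- replicate 1, 1 of 14 without IL1α-/- replicate 2 and 2 of 10 without WT replicate 2. The list's median against cells without Arg1 turned to 0.28 over 4 libraries.

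Apoe, the lipid carrier apolipoprotein E, was at 3622, 1947, 630.1 and 1630.2 CPM in members and at 12403, 6247, 9055 and 7409 CPM in phagocytes with both Arg1 and C1q, so that members were lower in each library. The log2 fold change was -2.00 ± 0.37 (adjusted p = 8.06e-06, edgeR), and -1.96 ± 0.41 against C1q phagocytes. Fabp5, a fatty acid carrier, showed -2.38 ± 0.32 (adjusted p = 5.22e-11), with 2034, 271, 360.0 and 337 CPM in members; 76 of the 82 UMIs of WT replicate 1 came from 1 cell. The lysosomal genes Cd63, Ctsd and Ctsb had log2 fold changes of -2.14 ± 0.31, -1.81 ± 0.31 and -1.69 ± 0.35. Spp1, which encodes osteopontin, was uneven, at 74.4, 1357, 270.0 and 239 CPM in members and 1103, 1834, 266 and 3197 in phagocytes with both. It was lower there (-1.89 ± 0.35, adjusted p = 8.78e-06) and called higher against C1q phagocytes (1.69 ± 0.40), a direction that turned to -0.15 over all 4 libraries.

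**Figure D5:**
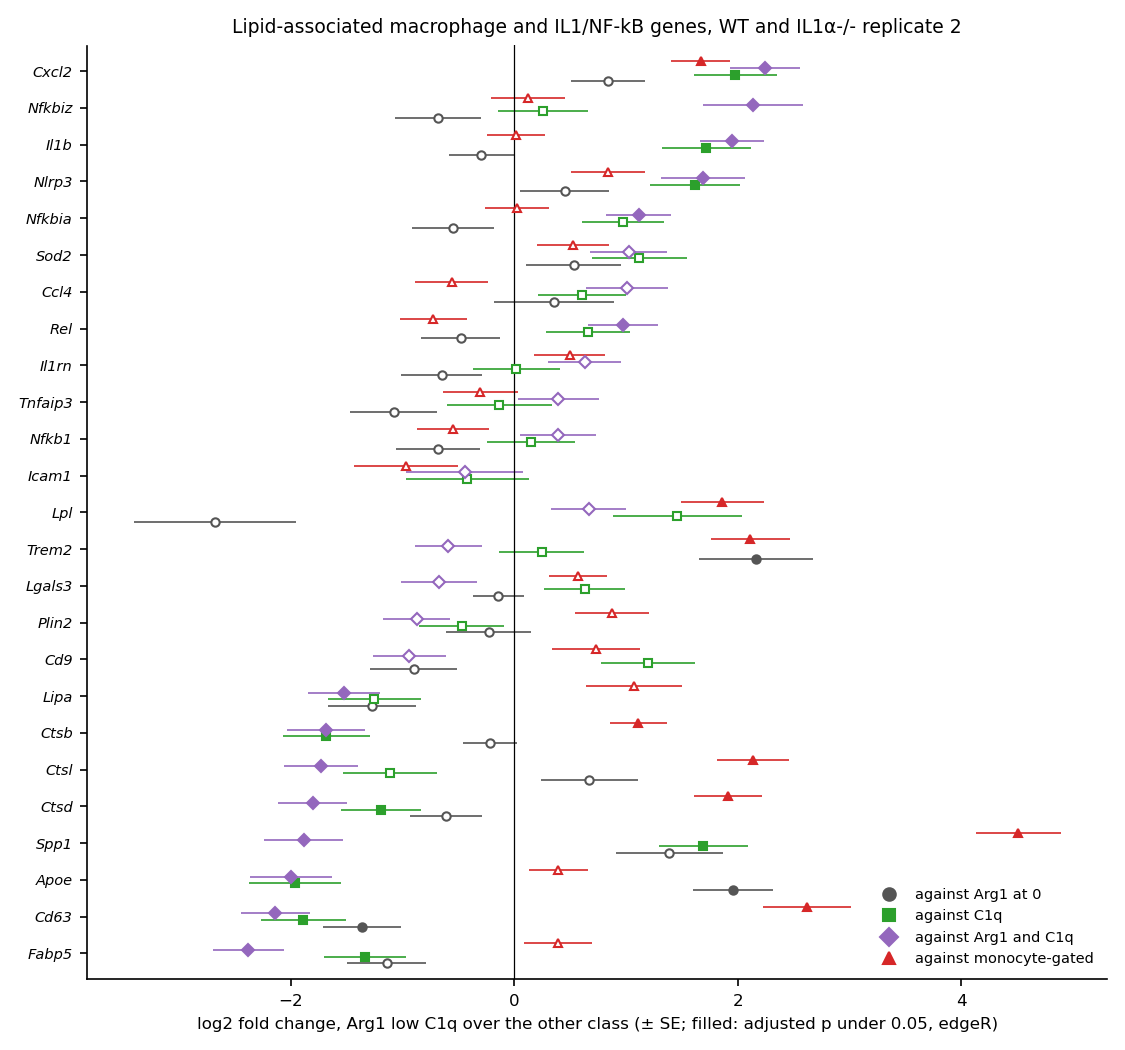
Log2 fold change (with SE) of Arg1 phagocytes low in C1q over each of 4 other phagocyte classes for interleukin 1 and NF-κB genes (upper rows) and lipid-associated macrophage genes (lower rows), WT and IL1α-/- replicate 2; filled symbols passed an adjusted p of 0.05 in edgeR. Against phagocytes with both Arg1 and C1q (purple) the medians of the lists lie at 1.02 and -1.71.

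Genes of resident macrophages were lower than in both C1q classes, with 5 of 7 tested lower against C1q phagocytes (median log2 fold change -1.36) and 3 of 6 against phagocytes with both (-1.20). Both classes were chosen for C1q genes, which mark mature tissue macrophages, so this difference can follow from that choice. Selenop, a selenium carrier, had 1712, 233, 270.0 and 348 CPM in members and 2779, 2745, 2965 and 3367 in C1q phagocytes (-3.46 ± 0.41, adjusted p = 1.9e-07, edgeR). The chemokine gene Ccl8 was at 11586, 633, 1890.2 and 1728 CPM against 7296, 13337, 23268 and 13475 (-3.71 ± 0.50, adjusted p = 1.86e-06), with WT replicate 1 the one library not lower. In that library 465 of the 467 Ccl8 UMIs came from 1 cell. The same cell, of 14637 UMIs and no C1q UMI, held all 106 UMIs of the scavenger receptor gene Cd163 in the library, 82 of its 105 Mrc1 UMIs and all 91 of its Chil3 UMIs, so the CPM of WT replicate 1 for these genes is largely that of 1 cell. Vcam1, an adhesion molecule, and the complement gene C4b were near the floor in members, with 1, 3, 0 and 0 and 0, 3, 0 and 0 UMIs, and were lower than the 135, 135, 399 and 234 and 152, 150.1, 1369 and 102 CPM of C1q phagocytes (adjusted p = 7.53e-06 and 3.09e-05, edgeR). The folate receptor gene Folr2 was lower than in phagocytes with both Arg1 and C1q (-2.73 ± 0.55, adjusted p = 6.44e-05, but 0.0958 over 4 libraries), and so was the growth factor gene Igf1 (-2.69 ± 0.48, adjusted p = 3.02e-06). Over all 4 libraries 1 of 6 genes of the list passed against each C1q class. Mfge8, which bridges dying cells to phagocytes, had 1, 3, 0 and 0 UMIs in members, and its call (adjusted p = 8.29e-25) was carried by the 3794 CPM of IL1α-/- replicate 2 in the class with both, against 85.6 in WT replicate 2.

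Some macrophage genes were higher in members than in cells without Arg1. Ms4a7, a macrophage membrane protein, had 471, 143, 450.0 and 315 CPM against 33.3, 0, 28.4 and 19.0, where the libraries numbered 2 held 0 and 2 UMIs (adjusted p = 0.00143, edgeR), and Maf, a transcription factor of mature macrophages, had 968, 119, 360.0 and 261 against 45.4, 24.6, 0 and 19.0, with 3 and 2 UMIs there (adjusted p = 0.00919). Both were higher in members in each library, but in WT replicate 1 16 of the 19 Ms4a7 UMIs were in 1 cell, and for Maf 1 cell held 32 of 39. Cited2, a co-factor that limits hypoxia-inducible factor, was called higher against all 4 classes, from 1.44 ± 0.33 against monocyte-gated phagocytes to 3.31 ± 0.60 against cells without Arg1, but 25 of its 43 UMIs in IL1α-/- replicate 2 and 14 of 23 in WT replicate 2 lay in 1 cell each. Mif, a cytokine, had 1042, 1324, 990.1 and 2369 CPM against 197, 336, 397 and 428, higher in each library (2.27 ± 0.30, adjusted p = 0.000456). S100a9 and S100a8, alarmins of neutrophils and monocytes, were lower than in cells without Arg1. S100a9 had 0, 0, 0 and 0 UMIs in members and 227, 2024, 0 and 466 CPM in cells without Arg1 (adjusted p = 2.6e-06, edgeR). The 12 neutrophil markers, which include S100a9 and S100a8, summed to 473, 3376, 56.8 and 1065 CPM in cells without Arg1. That sum is therefore not separate from this difference, and the part of neutrophil transcripts in it was not tested. Mmp12, macrophage elastase, was at 0, 333, 810.1 and 543 CPM in members against 1097, 1254, 56.8 and 6522 (-2.70 ± 0.33, adjusted p = 0.000262, but 0.0558 over 4 libraries), and lower too than in phagocytes with both Arg1 and C1q (-2.86 ± 0.37); IL1α-/- replicate 1 went the other way in both.

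Against monocyte-gated phagocytes, members were lower in 6 of 12 monocyte genes that the gate did not use (median log2 fold change -0.84), among them Ms4a4c, Thbs1, Ccr2 and S100a4, and higher in 3, Chil3, Fn1 and F10. Against C1q phagocytes 5 of 9 were higher (1.51) and against phagocytes with both Arg1 and C1q 3 of 9 (0.47). The monocyte-gated class was chosen for at least 3 UMIs of Ly6c2, Plac8, Vcan and Hp. Lower levels of other monocyte genes in members can follow from that choice. Ccr2, the chemokine receptor of blood monocytes, had 546, 638, 450.0 and 217 CPM in members and 1574, 1192, 1066 and 930.3 CPM in monocyte-gated phagocytes (-1.19 ± 0.28, adjusted p = 0.000393, edgeR), and was lower in each library. Ifitm6 and Pglyrp1, carried by monocytes at 406, 319, 307 and 437 and 114, 96.0, 178 and 108 CPM, had 1 UMI and none in all members. Their adjusted p was 6.13e-20 and 4.53e-07 (edgeR). Neutrophil markers summed to 5885, 2664, 129 and 140.4 CPM in monocyte-gated phagocytes, and their part in these differences was not tested. Interferon-response genes were lower in 7 of 9 tested (median log2 fold change -1.36), and the rule itself removes cells high in the interferon-induced genes Cxcl9 and Cxcl10. Chemokine genes were higher, 8 of 13, and so were matrix genes and proteases, 5 of 10, including Fn1, fibronectin (2.12 ± 0.27). The metallothionein gene Mt2 had 74.4, 105, 270.0 and 489 CPM in members against 5.45, 1.85, 0 and 0 (adjusted p = 1.43e-23, edgeR), and F7, coagulation factor VII, had 124, 319, 450.0 and 119.5 against 5.45, 5.54, 0 and 0 (adjusted p = 1.44e-21). Both were higher in members in each library.

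MHC class II genes, which present antigen to helper T cells, had no call against 3 of the classes: none of 7 tested passed against cells without Arg1, C1q phagocytes or phagocytes with both, with medians of -0.27, -0.46 and 0.07. Against monocyte-gated phagocytes 3 of 7 were higher (0.73). H2-Ab1 stood at 3101, 6404, 4320.4 and 4521 CPM in members and at 9391, 8801, 9638 and 9602 in C1q phagocytes, lower in each library but not past the threshold (-0.81 ± 0.42, adjusted p = 0.278, edgeR; 0.0214 over all 4 libraries). Suppressive mediators were mixed, with 5 of 11 higher than in C1q phagocytes (Trem1, Ptgs2, Mif, Spp1 and Thbs1; median 0.98), 3 higher and 1 lower of 11 against phagocytes with both Arg1 and C1q (0.47) and 1 of 8 higher against cells without Arg1 (0.89). Genes of the unfolded protein response had no call in any comparison (4 to 6 tested). Dissociation-stress genes, which digestion of tissue can raise, had no call against cells without Arg1 (0 of 10), 1 higher and 1 lower of 11 against each C1q class, and 2 higher of 13 against monocyte-gated phagocytes. Il10, a suppressive cytokine, had 0, 0, 0 and 0 UMIs in members, and Cd274, which encodes PD-L1, had 1, 25, 0 and 13 and passed in no comparison.

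The host genotype was compared within the members over all 4 libraries, since only 1 library of each genotype had 10 members. Of 1029 genes tested, 0 passed (0.0%) in edgeR, with 52 at an unadjusted p under 0.05, and DESeq2 called 1. The DESeq2 call was Chil3 (log2 fold change 2.99 ± 0.62, adjusted p = 0.00135), a gene with 1222 of 2325 UMIs in 1 cell of IL1α-/- replicate 2 and 77 of 79 in 1 cell of replicate 1. Leaving out a library gave 12 calls without WT replicate 1, 17 without WT replicate 2, 15 without IL1α-/- replicate 1 and 0 without IL1α-/- replicate 2, all in edgeR with a lone library in 1 arm that is assumed to vary like the others. Chil3 (2258, 1962, 7111 and 25268 CPM) and Cxcl2 (1017, 1166, 4320.4 and 3641) were higher in the IL1α-/- libraries. Their log2 fold changes of 2.98 ± 0.64 and 1.82 ± 0.39 did not pass (adjusted p = 0.229 and 0.229, edgeR). Groups of 2 libraries often separate by chance, and the share of tested genes that separate was not computed. In IL1α-/- replicate 1, 1 cell held 42 of the 48 Cxcl2 UMIs. Arg1, used by the rule, is given without a test at 2233, 2933, 7561 and 4999 CPM. Thbs1, which encodes thrombospondin 1, had 99.2, 57.1, 180.0 and 598 CPM, with 55 UMIs in IL1α-/- replicate 2 and a log2 fold change of 2.81 ± 0.63 (adjusted p = 0.251, edgeR). None of the hypoxia and glycolysis genes that entered the test was called. Genes with too few counts, such as Car12 at 0 UMIs, did not enter it. Hilpda showed 0.72 ± 0.68 (adjusted p = 0.937, edgeR). Cell by cell, the 46 genes took a median of 0.799% and 1.11% of UMIs in WT libraries. In IL1α-/- libraries the medians were 1.51% and 2.04%, and this difference was not tested. The difference between members and monocyte-gated phagocytes itself differed by genotype in 4 of 2330 genes (0.172%, with 0.129% higher and 0.0429% lower in IL1α-/-): Anxa1, Egr1, Mmp12 and Lpl. With 4 and 6 members in the libraries numbered 1, a gene needed a large shift to pass, so a miss does not show that members of both genotypes are alike.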

How the data were processed

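Counts were read from the deposited unfiltered matrices of whole-number UMI counts per barcode and gene, which the authors made with Cell Ranger 3.1.0 on mm10, per the submitters' processing notes. The file headers add a combined human and mouse reference, and the 31053 mouse features were used. Members and gene lists were chosen with earlier results of these data known, so counts over a list describe it. Genes were drawn from the lists or from the called genes of largest change in each comparison, 10 higher and 10 lower. The latter had at least 50 UMIs and the same direction in every library tested. Not all of them are described, and AA467197, C6 and H2-M2 are among those left out. Other genes were chosen after their values were seen. CPM divides a gene's summed UMIs by all mouse UMIs of those cells, and 3' counts are not per length, so levels are not compared between genes.

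Summed counts were tested with edgeR 4.0.16 (TMM, filterByExpr, quasi-likelihood; limma 3.58.1, R 4.3.3), with DESeq2 1.42.0 as an alternative. Shares were tested with scipy 1.17.1 over the 6 assignments of 4 samples. Doublets were scored with Scrublet in scanpy 1.11.5 and kept; an alternative removed the highest scores, 0.8% per 1000 cells. Recovery was checked on counts simulated with the real UMI totals per library and class. The same assumed dispersion was used for all genes, and changes were planted only in the better-counted genes. The fits over 2 libraries found 60% of 4-fold changes and 9% of 2-fold ones against cells without Arg1 (1686 genes). They found 77% and 10% against C1q phagocytes (2916 genes) and 75% and 13% against monocyte-gated phagocytes (3587 genes). Against phagocytes with both they found 75% and 15% (3063 genes). Genes whose UMIs lie mostly in 1 cell were not simulated, so recovery in the real counts can be lower. The planned genotype test needed 10 members in each library and could not be run, so a fit over all 4 libraries replaced it. Library pairs shared 0 to 6 kept barcodes. Intervals cover counting error only.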

Additional observations from a re-analysis of the deposited data

Results flagged for a closer look

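In 4 genes the difference between members and monocyte-gated phagocytes itself differed between host genotypes, by edgeR's test of class by genotype over all 4 libraries (0.172% of 2330 genes tested). The differences are log2 fold changes in IL1α-/- libraries minus those in WT libraries. For Anxa1, the lipocortin gene, it was 2.68 ± 0.62 (SE, adjusted p = 0.00955, edgeR). Members had 124, 224, 1170.1 and 424 CPM, from 5, 47, 13 and 39 UMIs. Monocyte-gated phagocytes had 278, 412, 64.6 and 253 CPM, from 102, 223, 4 and 63 UMIs. Members were lower in both WT libraries and higher in both IL1α-/- libraries, but IL1α-/- replicate 1 held 4 members. For Egr1, an immediate early gene, it was 3.26 ± 0.73 (adjusted p = 0.00671), with 49.6, 71.4, 900.1 and 446 CPM in members; 8 of the 10 Egr1 UMIs of IL1α-/- replicate 1 lay in 1 cell, and Egr1 is also a dissociation-stress gene. For Lpl, lipoprotein lipase, it was -8.67 ± 1.86 (adjusted p = 0.00357), resting on 2, 137, 0 and 0 UMIs in members, 70 of the 137 in 1 cell. For Mmp12, macrophage elastase, it was 6.43 ± 0.86 (adjusted p = 1.93e-10), with 0, 70, 9 and 50 UMIs in members and 5.45, 471, 0 and 12 CPM in monocyte-gated phagocytes; 1 cell held all 9 UMIs of IL1α-/- replicate 1, and another 35 of the 50 of replicate 2. Folds that rest on counts of 0 are fitted values and no bound. The same test called 0 genes against cells without Arg1, C1q phagocytes or phagocytes with both.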

How the results depend on the processing

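The difference in the share of phagocytes lay between 1.39 and 2.36 points under other gate and depth settings apart from thinning to 1000 UMIs, and between -0.228 and 4.27 leaving out each library; for kept barcodes leaving out a library gave -0.527 to 0.197. With the replicate block (permuting within numbers) both differences stayed 2.02 and -0.165 points at the smallest exact p of 0.5. The differences between replicates 1 and 2 in summed phagocytes were hardly correlated between the genotypes (Pearson r = 0.0690 over 2062 genes). With 2 pairs this cannot tell whether libraries of the same number share a collection day. In the replicate block 15 genotype genes passed in edgeR, 13 higher and 2 lower, against 0 without it. Without the filter on low counts 9 passed, and in DESeq2 1.

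Against cells without Arg1 (58 calls) there were 14 with RLE size factors, 0 with no filter, 20 in DESeq2, 6 with doublets removed, 2 at 1000 UMIs, 2 without the sample block, and 17 to 66 leaving out a library of 4 (23 without IL1α-/- replicate 2). Against C1q phagocytes (208) there were 69 in DESeq2 (41 higher, 28 lower), 43 without the block, 84 over 4 libraries (75 shared) and 30 to 123 leaving one out (96 and 32 without IL1α-/- replicates 1 and 2). Against monocyte-gated phagocytes (394) there were 101 in DESeq2 (73 higher, 28 lower), 153 without the block and 148 to 324 (235 without IL1α-/- replicate 2). Against phagocytes with both (113) there were 24 in DESeq2 (3 higher, 21 lower), 0 without the block, 74 over 4 libraries (58 shared) and 9 to 77. The cause was not tested.

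Over 4 libraries, named genes turned direction as follows. Without WT replicate 2, Cd63 was 0.64 against cells without Arg1, Spp1 -1.49 against C1q phagocytes and Ccl7 0.12 against phagocytes with both. Without IL1α-/- replicate 2, Cd63 was 0.59 against cells without Arg1, Fabp5 0.11 and Spp1 -0.78 against C1q phagocytes, Ptgs2 -0.28 against monocyte-gated phagocytes, and Ctsl 0.29 and Ero1l -0.71 against phagocytes with both. Spp1 was -0.15 against C1q phagocytes with all 4, and Lpl -0.69 against monocyte-gated phagocytes in DESeq2.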
